A study of Homo sapiens with 4 samples.

Results

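The genes described here are 54 components of the actin cytoskeleton and of focal adhesions. They are the actins themselves, the proteins that bind, cut, crosslink and move actin filaments, and the proteins that tie filaments to the membrane. They were chosen by gene symbol, 1 row per symbol, from a count table of 64252 rows, and all 54 were found. The cells were SK-N-BE(2), a human neuroblastoma cell line with an amplified MYCN gene. The shControl group carried a control short hairpin RNA (2 libraries), and the shCDK5RAP3 group carried a hairpin against CDK5RAP3, a partner of the UFM1 ligase at the endoplasmic reticulum (2 libraries), and RNA was sequenced in bulk. The sequence and number of hairpins are not stated. Both groups are the same parental line, and the labels name no other allele, agent or time. Whether replicates came from separate cultures is not stated, so p-values measure only the spread between these libraries, which may be technical.

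Actin monomers, delivered by profilin and held in reserve by thymosins, polymerise into filaments that the Arp2/3 complex branches, formins and Ena/VASP proteins elongate, and cofilin and gelsolin sever. Tropomyosins coat the filaments, myosin II pulls on them, and at focal adhesions talin, vinculin, zyxin and paxillin connect them to integrins. Many of these genes are targets of serum response factor (SRF), whose coactivators of the MRTF family are held in the cytoplasm by free actin monomers. The isoforms ACTA2, ACTG2, TAGLN, CNN1, LMOD1 and MYL9 are best known from smooth muscle and contractile fibroblasts, whereas TAGLN3, PFN2 and EVL are prominent in neurons.

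Library totals were 28721740 and 28755837 counts for shControl and 28653689 and 30138393 for shCDK5RAP3. The targeted gene, CDK5RAP3, went from 87.4 and 98.6 CPM (counts scaled to a common library total) in shControl to 58.5 and 57.1 CPM in shCDK5RAP3, or 62.1% of control (log2 fold change -0.69 ± 0.08 SE, edgeR adjusted p = 0.000163). The labelled cell type was checked on 9 noradrenergic neuroblastoma markers, all detected in every library, whose summed level was 7503 to 8031 CPM in shControl and 4754 to 4920 CPM in the shCDK5RAP3 libraries (7 of 9 lower, 1 higher). Of 10 smooth muscle and pericyte markers 3 were higher (SMTN, ACTG2, CNN1) and 4 lower (RGS5, NOTCH3, SYNPO2, DES). DES had 17 and 18 counts in shControl against 0 and 0 in shCDK5RAP3. ACTG2, CNN1 and LMOD1 of this list are also among the 54 genes described below. The summed level of the list, most of it from RGS5, was 3235 to 3412 CPM against 1993 to 2001 CPM. The summed level of 9 fibroblast markers, with FAP at 0 in every library, was 816 to 834 CPM against 530 to 540 CPM (1 higher, 5 lower). The summed level of 6 Schwann markers was 32.8 to 33.9 CPM against 17.1 to 17.4 CPM (0 higher, 2 lower, PMP22 and S100B), with SOX10 at 0. That of 5 epithelial markers was 7.29 to 8.12 CPM against 4.13 to 4.63 CPM (0 higher, 2 lower, EPCAM and KRT19), with CDH1 at 0. Leukocyte markers, with CD3E at 0, summed to at most 2.86 CPM and endothelial markers to at most 2.01 CPM in any library, and of both lists CDH5, at 17 and 11 counts against 0 and 0, was lower. Of all 18775 tested genes 19.7% were higher and 21.8% lower at the same threshold, an edgeR adjusted p under 0.05. The part of the marker shifts in the results below was not tested, and in bulk RNA fewer cells that express a gene and less RNA per cell cannot be told apart.

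Of the 54 genes 52 had enough counts to be tested, and 25 of them rose and 10 fell after knockdown at an adjusted p under 0.05 (edgeR quasi-likelihood test), while 17 did not pass. That is 67.3% called, against 41.5% of all 18775 tested genes. By direction, 48.1% of the members were higher against a background of 19.7%, and 19.2% were lower against 21.8%. Abundant genes are called more often, and most members are abundant. Among tested genes with a mean of at least 10 CPM, 55.3% were called, 28.6% higher and 26.7% lower, and of the 47 members at that level 31 were called, 23 higher (48.9%) and 8 lower. That minimum of 10 CPM was chosen after seeing the data. The median log2 change of the 52 was 0.17, against -0.00 over all tested genes, and the values ran from -2.45 (TAGLN3) to 3.48 (ACTG2). Groups did not overlap for 45 of the 52, or 86.5%, against 71.4% of all tested genes. Together the 54 genes took 1.57% and 1.58% of all counts in shControl and 1.80% in each shCDK5RAP3 library. Of the 35 calls 9 were changes of at least 2-fold, 5 upward and 4 downward, or 17.3% of the tested members, and 10.5% of all tested genes were called at that size. With no filter on low counts 6 members were lower and 18 higher. Over all 33921 genes then tested 2522 were lower and 1966 higher, against 4088 and 3704 of 18775 in the main fit. When either shCDK5RAP3 replicate was left out, fewer genes were called in each direction, both among the members and over all genes. Below, where leaving out a library or changing the scaling or the filter ended or gave a call, the number in parentheses is the edgeR adjusted p there, and RLE, upper-quartile and library size name other ways of scaling the libraries.

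**Figure D1:**
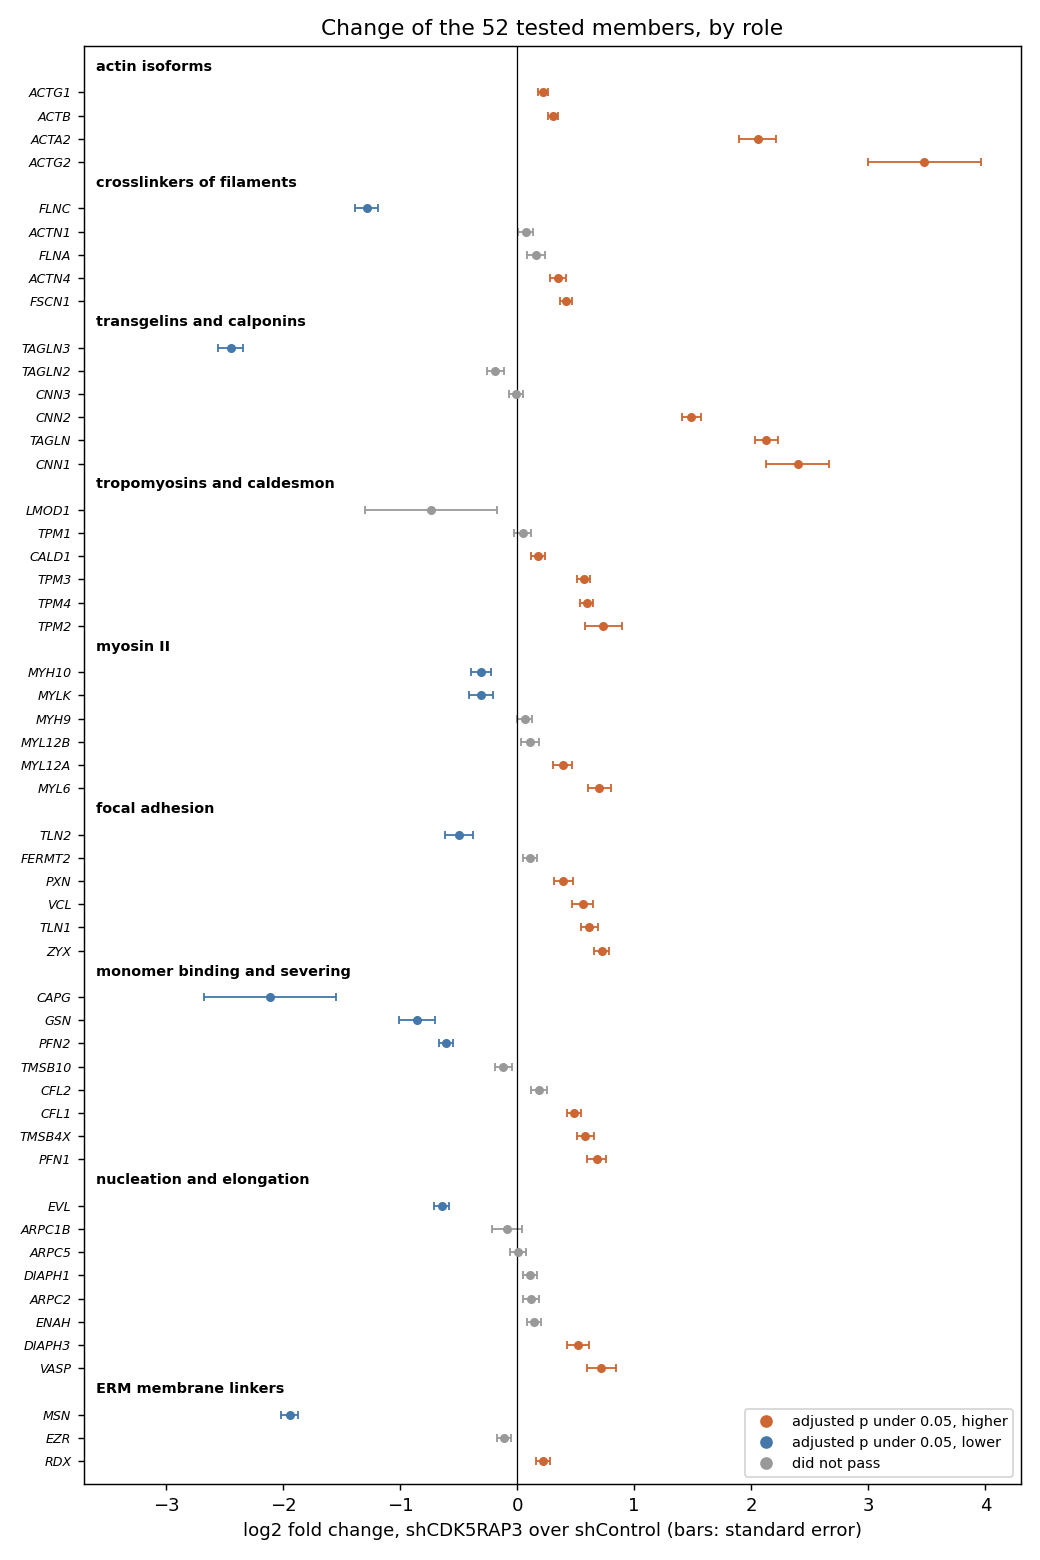
Log2 fold change of each of the 52 tested members (horizontal axis, shCDK5RAP3 over shControl) with its standard error, grouped by role and coloured by call. The 4 actins lie to the right of 0, and TAGLN3, MSN, CAPG and FLNC lie farthest to the left.

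**Figure D2:**
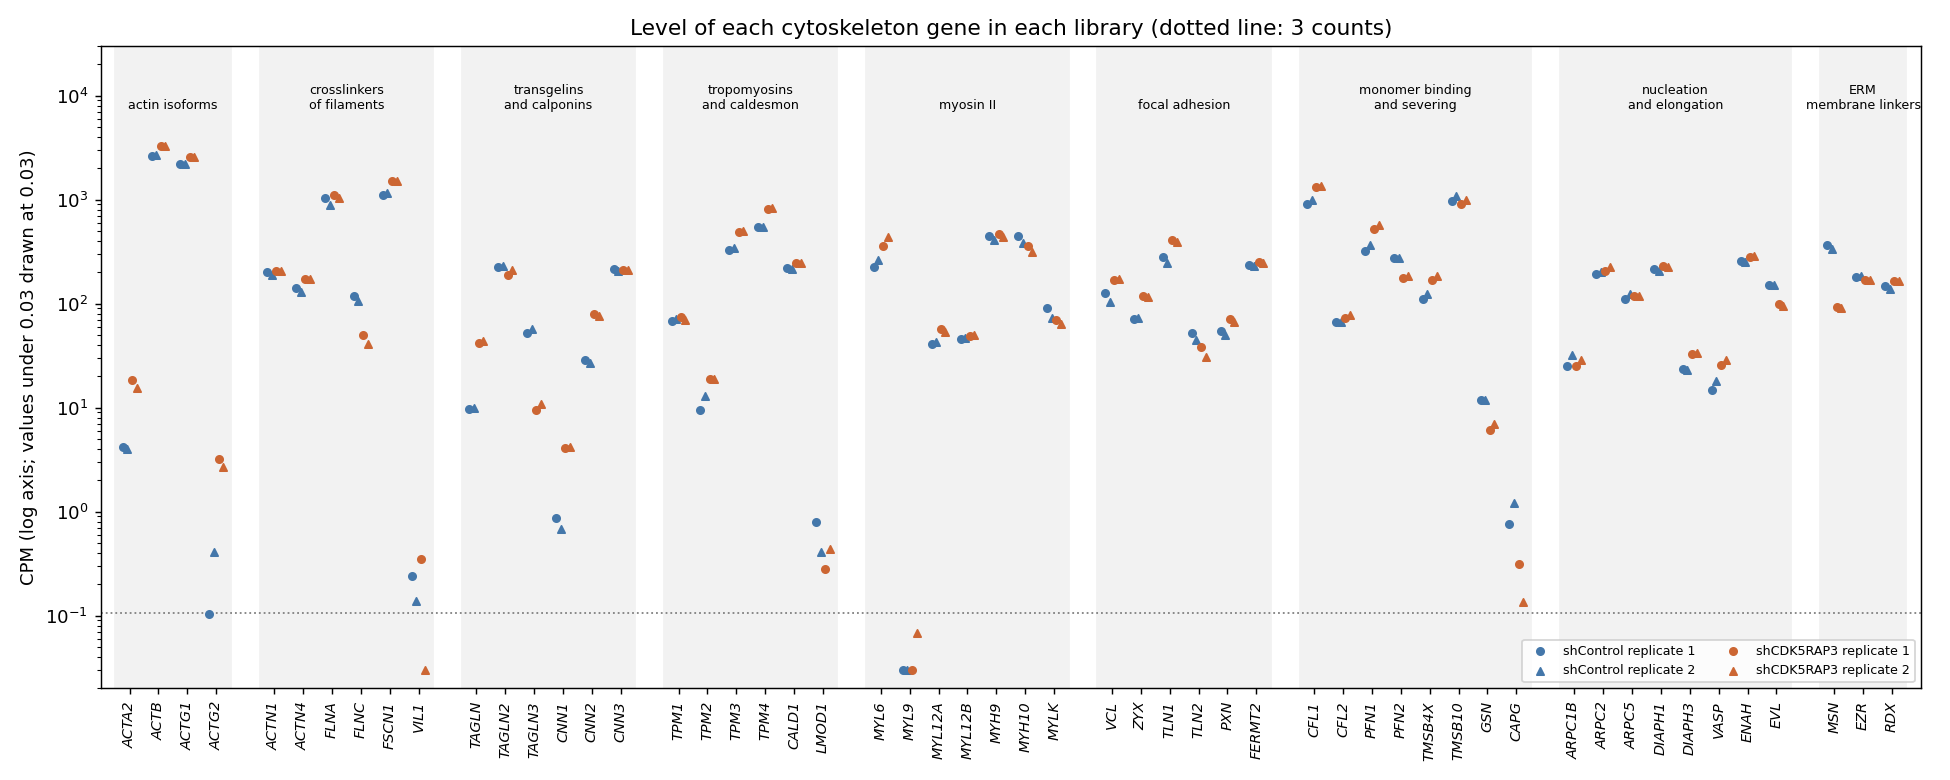
CPM of all 54 genes in each of the 4 libraries (logarithmic vertical axis), blue for shControl and orange for shCDK5RAP3, with circles for replicate 1 and triangles for replicate 2. The smooth muscle isoforms ACTA2, ACTG2, TAGLN and CNN1 are orders of magnitude below ACTB, and MYL9 lies under the dotted line that marks 3 counts.

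All 4 actin genes rose, the abundant cytoplasmic pair slightly and the smooth muscle pair several-fold. ACTA2 (ENSG00000107796, GRCh38 chromosome 10, 88935074 to 88991339, minus strand), the smooth muscle alpha actin, had 120 and 117 counts in shControl against 526 and 461 in shCDK5RAP3. This was 4.09 ± 0.0873 against 17.0 ± 2.01 CPM (SD, n = 2 each), a 4.16-fold rise (log2 change 2.06 ± 0.16 SE, edgeR adjusted p = 2.23e-05). ACTG2, the smooth muscle gamma actin on chromosome 2 (73892314 to 73919865), had 3 and 12 counts against 91 and 79. Every shCDK5RAP3 value of both genes was far above the shControl values, although the shControl counts of ACTG2 are so low that its fold is imprecise (log2 change 3.48 ± 0.48 SE, edgeR adjusted p = 0.000481, from 2.81 to 4.76 over the alternatives). Beta actin, ACTB, was at 2609 and 2668 CPM in shControl and 3254 and 3281 CPM in shCDK5RAP3 (log2 change 0.31 ± 0.04 SE, edgeR adjusted p = 0.000593). Gamma actin, ACTG1, was 1.17-fold higher (log2 change 0.22 ± 0.05 SE, edgeR adjusted p = 0.00422), a call lost without shCDK5RAP3 replicate 2 (0.0873).

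Per kilobase of annotated exon, ACTB and ACTG1 stood level in the shControl cells, at 749.8 and 736 CPM per kb, and made up nearly all actin mRNA. ACTA2 was at 1.37 and ACTG2 at 0.0678 CPM per kb. After its rise ACTA2 gave 0.347% and 0.290% of the summed actin level in the shCDK5RAP3 libraries, from 0.0946% and 0.0901% in the shControl libraries. The summed actin level was 1473 and 1502 CPM per kb in shControl against 1783 and 1803 in shCDK5RAP3, almost all of it from the cytoplasmic isoforms. The actins have many near-identical copies and processed pseudogenes, as do CFL1, TPM3 and PFN1, and how reads mapping to several places were counted is not stated, so their values are uncertain by that much. ACTA2 also shares 380 exonic bases with FAS and 516 with ACTA2-AS1, both on the other strand, neither of which passed the test (edgeR adjusted p = 0.124 and 0.511). The cardiac and skeletal isoforms stayed near the floor, with 0 and 4 counts in shControl against 4 and 10 in shCDK5RAP3 for ACTA1 and 0 and 3 against 0 and 0 for ACTC1, and neither was tested.

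Transgelins and calponins, related proteins that bind along the sides of actin filaments, showed the widest spread of any group. TAGLN (ENSG00000149591, chromosome 11, 117199321 to 117204782), the smooth muscle transgelin, had 280 and 291 counts in shControl against 1205 and 1300 in shCDK5RAP3, or 9.85 ± 0.234 against 43.1 ± 1.23 CPM (mean ± SD of 2 libraries), a 4.38-fold rise (log2 change 2.13 ± 0.10 SE, edgeR adjusted p = 1.79e-06). TAGLN3 (ENSG00000144834, chromosome 3, 111998664 to 112013887), the neuronal member, went the other way, from 52.5 and 57.5 CPM to 9.42 and 10.8 CPM, or 18.3% of control (log2 change -2.45 ± 0.11 SE, edgeR adjusted p = 1.38e-06). The most abundant member, TAGLN2, was at 87.9% of control and did not pass (log2 change -0.19, edgeR adjusted p = 0.065), although it did without shControl replicate 1 (0.0456) and by library size (0.0322). The make-up of the family differed between the groups. TAGLN went from 2.04% and 2.00% of the summed transgelin level per length to 11.7% and 11.0%, and TAGLN3 from 24.2% and 25.1% to 5.73% and 5.89%. TAGLN shares 446 exonic bases with PCSK7 on the other strand, which rose by 0.45 on the log2 scale.

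CNN1, the smooth muscle calponin on chromosome 19 (11538717 to 11550323), had 25 and 20 counts in shControl against 116 and 123 in shCDK5RAP3, a 5.30-fold rise (log2 change 2.40 ± 0.27 SE, edgeR adjusted p = 0.000159). CNN2, the broadly expressed calponin, rose from 28.6 and 27.0 CPM to 79.9 and 76.4 CPM (log2 change 1.49 ± 0.08 SE, edgeR adjusted p = 2.86e-06). The most abundant calponin, CNN3, had overlapping groups, with 215 and 207 against 211 and 209 CPM, and a log2 change of -0.01 ± 0.06 SE whose sign depends on the scaling (0.00 with RLE factors, 0.02 with upper-quartile factors). CNN2 went from 9.37% and 9.19% of the summed calponin level per length to 22.4% and 21.8%. ACTA2, TAGLN, CNN1, CNN2 and TAGLN3 kept their calls under every alternative tried.

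SRF binds the CArG box, a motif whose pattern is the same on both strands. RefSeq promoter windows (GRCh38.p14, 250 bases before to 50 after the annotated start) were available for 47 of the 54 genes, and 6 of those, or 12.8%, held an exact CArG box, against 1.29% of all 27305 windows and 1.02% of the tested genes with a window. The boxes are shown with 10 bases on either side because these are the members whose window held the motif, and the box is in capitals.
ACTG2 (chr2:73892888-73892917): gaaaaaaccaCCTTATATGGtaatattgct
ACTG2 (chr2:73892925-73892954): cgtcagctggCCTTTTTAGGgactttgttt
ACTG1 (chr17:81512874-81512903): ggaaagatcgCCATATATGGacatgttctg
CNN2 (chr19:1026509-1026538): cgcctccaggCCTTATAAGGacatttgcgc
TPM4 (chr19:16067355-16067384): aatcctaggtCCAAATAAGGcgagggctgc
FLNA (chrX:154374709-154374738): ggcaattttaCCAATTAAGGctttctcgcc
MYLK (chr3:123620623-123620652): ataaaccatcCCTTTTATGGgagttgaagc

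Of these 6 genes ACTG2, ACTG1, CNN2 and TPM4 rose, FLNA did not pass and MYLK fell. The ACTG2, CNN2 and TPM4 windows lie on the plus strand and the others on the minus strand, and each sequence is written 5′ to 3′ on the strand of its gene. The MYLK window lies at a start inside the gene, far from the 5′ end of the annotated gene at 123884331. The ACTG1 window also lies inside the annotated gene, whose 5′ end is at 81523847. So do the ACTG2 and TPM4 windows, in genes whose 5′ ends are at 73892314 and 16067021. Only the CNN2 and FLNA windows span the 5′ end of the annotated gene. Over all tested genes with a box in the window, 26.2% were higher and 32.0% lower, against 22.2% and 24.8% of all tested genes with a window. A match is a description of the letters and not a measured binding site. Only 1 window per gene was searched, and genes without a window were not searched. A gene missing from the list may therefore hold a box at another start or outside its window.

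Tropomyosins are coiled-coil proteins that lie along the actin filament and set which partners can bind it. Of the 4 genes TPM2, TPM3 and TPM4 rose, and TPM1 had overlapping groups. TPM4, the most abundant per length, was at 544 and 549 CPM in shControl and 816 and 834 CPM in shCDK5RAP3 (log2 change 0.59 ± 0.05 SE, edgeR adjusted p = 4.61e-05). TPM3 rose from 326 and 340 CPM to 486 and 500.5 CPM (log2 change 0.57 ± 0.06 SE, edgeR adjusted p = 9.65e-05). Both moved by about the same factor, and the summed tropomyosin level per length was 1.48-fold higher while TPM4 stayed at 56.0% to 57.7% of it in every library. TPM2, with 275 and 378 counts against 537 and 552, had a log2 change of 0.73 ± 0.16 SE (edgeR adjusted p = 0.00516), a call lost without shCDK5RAP3 replicate 1 (0.0565), without shCDK5RAP3 replicate 2 (0.0843) and with no filter on low counts (0.0865). TPM1 was at 67.4 and 70.9 against 73.9 and 69.2 CPM (log2 change 0.05 ± 0.07 SE, edgeR adjusted p = 0.621).

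CALD1, caldesmon, which restrains actomyosin, was 1.13-fold higher (log2 change 0.18 ± 0.06 SE, edgeR adjusted p = 0.0365). That small rise lost its call without shControl replicate 2 (0.103), without shCDK5RAP3 replicate 1 (0.191) or 2 (0.177), by library size (0.0684) and with no filter (0.0739). LMOD1, a filament nucleator of smooth muscle, did not pass. It had 23 and 12 counts in shControl against 8 and 13 in shCDK5RAP3, with overlapping groups (edgeR adjusted p = 0.329).

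Myosin II, the motor that contracts actin filaments, is built from heavy chains, essential light chains and regulatory light chains, and its members went both ways. The essential light chain MYL6 rose from 227 and 262 CPM to 359 and 435 CPM (log2 change 0.70 ± 0.10 SE, edgeR adjusted p = 0.000573; 0.0539 with no filter). MYL6 shares 514 exonic bases with SMARCC2 on the other strand, which fell by 0.49 on the log2 scale. It also shares 89 with MYL6B on the same strand, which rose by 0.26 (edgeR adjusted p = 0.0171). Among the regulatory light chains MYL12A rose 1.31-fold (log2 change 0.39 ± 0.08 SE, edgeR adjusted p = 0.00369), a call lost without shCDK5RAP3 replicate 1 (0.0551), and its neighbour MYL12B had a log2 change of 0.11 (edgeR adjusted p = 0.281). MYL9, the regulatory light chain of smooth muscle, had 0 and 0 counts in shControl against 0 and 2 in shCDK5RAP3. All 4 values are under 3 counts, the limit that a count of 0 allows, so MYL9 could not be told from 0 at this depth.

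The heavy chains and the kinase showed small differences. MYH9 was at 449 and 413 against 464 and 437 CPM, with overlapping groups (log2 change 0.06 ± 0.07 SE, edgeR adjusted p = 0.468). MYH10, the isoform prominent in neurons, was at 443 and 385 against 354 and 315 CPM (log2 change -0.31 ± 0.08 SE, edgeR adjusted p = 0.0163). MYLK, the kinase that activates myosin II through its light chain, was at 91.2 and 73.2 against 69.1 and 63.8 CPM (log2 change -0.31 ± 0.10 SE, edgeR adjusted p = 0.0395). Both of these small falls depend on single libraries. For MYH10 the adjusted p was 0.0517 without shControl replicate 1, 0.0545 without shCDK5RAP3 replicate 1, 0.214 without shCDK5RAP3 replicate 2 and 0.143 with no filter (edgeR). For MYLK it was 0.224 without shControl replicate 1, where the log2 change was -0.14, 0.136 without shCDK5RAP3 replicate 1, 0.299 without shCDK5RAP3 replicate 2, 0.226 with no filter and 0.0565 with upper-quartile factors (edgeR).

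Among the crosslinkers, which gather filaments into bundles and networks, FLNC stood apart by its fall. FLNC, the filamin of muscle (ENSG00000128591, chromosome 7, 128830377 to 128859274), was at 117 and 106 CPM in shControl and 50.3 and 41.3 CPM in the shCDK5RAP3 libraries, or 41.0% of control (log2 change -1.29 ± 0.10 SE, edgeR adjusted p = 2.13e-05). The ubiquitous filamin FLNA, at 1037 and 891 against 1111 and 1046 CPM, did not pass (log2 change 0.16 ± 0.07 SE, edgeR adjusted p = 0.115), but passed without shControl replicate 1 (log2 change 0.27, 0.00557). FLNC went from 11.4% and 11.9% to 4.91% and 4.31% of the summed filamin level per length. FSCN1, fascin, which bundles filaments in filopodia, rose 1.34-fold, from 1112 and 1149 CPM to 1496 and 1523 CPM (log2 change 0.42 ± 0.05 SE, edgeR adjusted p = 0.00023). ACTN4, an alpha-actinin, rose 1.27-fold (log2 change 0.35 ± 0.07 SE, edgeR adjusted p = 0.00299; 0.0703 without shCDK5RAP3 replicate 2), and the log2 change of its paralog ACTN1 was 0.07 ± 0.06 SE (edgeR adjusted p = 0.39). VIL1, villin of intestinal microvilli, had 7, 4, 10 and 0 counts and was not tested.

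Of 6 focal-adhesion genes 4 rose and TLN2 fell. The 66.7% that rose compare with 19.7% of all tested genes and 28.6% of those with a mean of at least 10 CPM. ZYX, zyxin, which moves to strained filaments, had the largest rise, from 70.5 and 72.2 CPM in shControl to 119 and 116 CPM in shCDK5RAP3 (log2 change 0.72 ± 0.06 SE, edgeR adjusted p = 4.12e-05). TLN1, the talin that activates integrins in most cells, rose from 278 and 246 CPM to 409 and 395 CPM (log2 change 0.62 ± 0.07 SE, edgeR adjusted p = 0.00018). VCL, vinculin, which binds stretched talin, was at 125 and 104 against 167 and 171 CPM (log2 change 0.56 ± 0.09 SE, edgeR adjusted p = 0.000919), and its call was lost without shCDK5RAP3 replicate 2 (0.052) and with no filter (0.0504). The groups of all 3 genes were well separated. VCL shares 1109 exonic bases with AP3M1 on the other strand, whose log2 change of 0.21 did not pass (edgeR adjusted p = 0.0634).

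The adaptor PXN, paxillin, rose 1.31-fold (log2 change 0.39 ± 0.08 SE, edgeR adjusted p = 0.00374; 0.0624 without shCDK5RAP3 replicate 1 and 0.0517 with no filter). FERMT2, kindlin-2, the partner of talin in integrin activation, was at 235 and 228 against 252 and 247 CPM and did not pass (log2 change 0.11 ± 0.06 SE, edgeR adjusted p = 0.176). TLN2, the talin abundant in muscle and brain, went from 51.8 and 44.7 CPM to 37.9 and 30.5 CPM (log2 change -0.50 ± 0.12 SE, edgeR adjusted p = 0.00904). Its call was lost without shCDK5RAP3 replicate 2 (log2 change -0.35, 0.127) and with no filter (0.115). The talins thus moved in opposite directions, and TLN1 went from 89.6% and 89.9% to 94.5% and 95.4% of the summed talin level per length.

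Proteins that hold or cut actin also split within families. PFN1, the general profilin, rose from 317 and 369 CPM to 523 and 575 CPM (log2 change 0.68 ± 0.08 SE, edgeR adjusted p = 0.000235). PFN2, the profilin prominent in neurons, fell from 274 and 275 CPM to 178 and 182 CPM (log2 change -0.61 ± 0.06 SE, edgeR adjusted p = 7.22e-05). Neither pair of groups overlapped, and both calls held under every alternative. PFN2 went from 31.6% and 28.6% to 15.4% and 14.5% of the summed profilin level per length, while that sum was 1.32-fold higher. CFL1, the main cofilin, rose from 912 and 989 CPM to 1310.2 and 1350.4 CPM (log2 change 0.48 ± 0.06 SE, edgeR adjusted p = 0.000216). Its muscle paralog CFL2 had 1930 and 1919 counts in shControl against 2097 and 2297 in shCDK5RAP3 and did not pass (log2 change 0.19, edgeR adjusted p = 0.0536), but passed with RLE factors (0.0449), upper-quartile factors (0.0299) and a filter of at least 1 CPM in 2 libraries (0.0438).

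TMSB4X, a thymosin that sequesters monomers, rose from 112 and 122 CPM to 167 and 183 CPM (log2 change 0.58 ± 0.07 SE, edgeR adjusted p = 0.000321). Its paralog TMSB10, by far the most abundant member of the set per length at 2068 CPM per kb in the shControl cells, had overlapping groups, with 973 and 1078 against 897 and 995 CPM (log2 change -0.12, edgeR adjusted p = 0.221). Both thymosins have processed pseudogenes of near-identical sequence. GSN, gelsolin, which severs and caps filaments, had 339 and 343 counts in shControl against 175 and 204 in shCDK5RAP3 (log2 change -0.85 ± 0.15 SE, edgeR adjusted p = 0.0021). CAPG, a related capping protein, had 22 and 35 counts against 9 and 4 (log2 change -2.11 ± 0.56 SE, edgeR adjusted p = 0.0149), a call lost without shControl replicate 2 (0.131), without shCDK5RAP3 replicate 2 (log2 change -1.63, 0.122) and with no filter (0.0892).

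**Figure D3:**
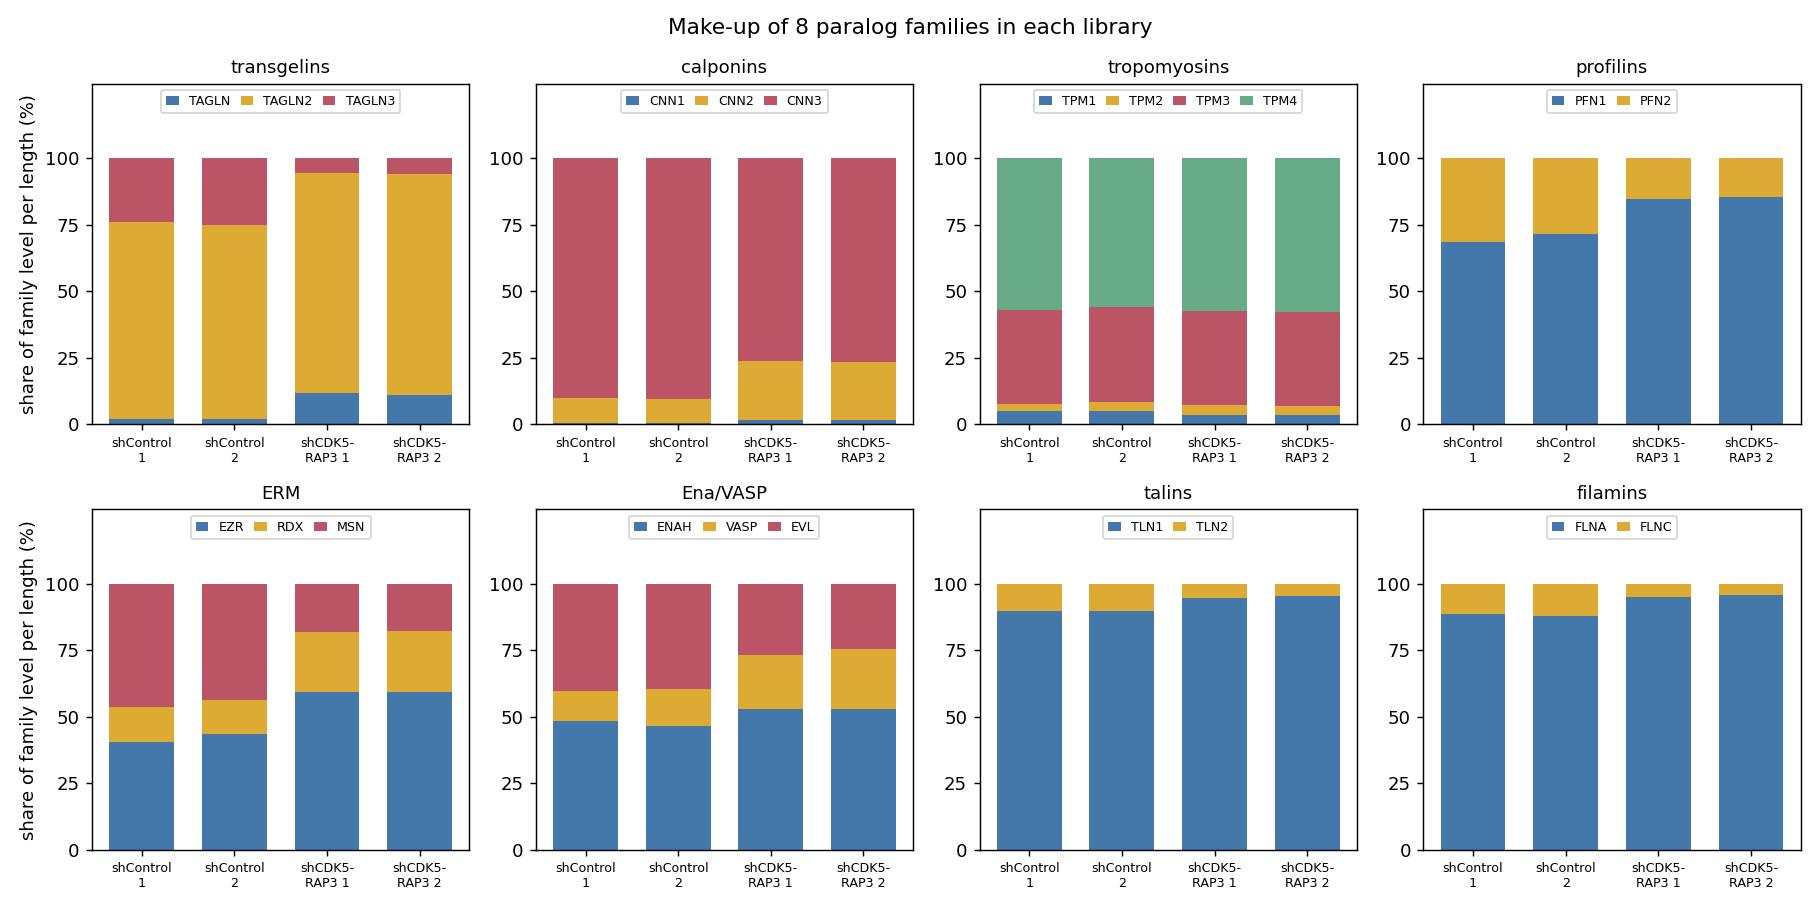
Share of each paralog in its family's summed level per kilobase of exon, for 8 families in the 4 libraries (stacked bars, percent). TAGLN3, PFN2, MSN, EVL, TLN2 and FLNC take a smaller share in both shCDK5RAP3 libraries than in both shControl libraries, while the shares of TPM3 and TPM4 hardly move.

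Of 8 genes that start or extend filaments 5 did not pass, 2 rose and EVL fell. So 37.5% were called, against 41.5% of all tested genes and 55.3% of those with a mean of at least 10 CPM. The Arp2/3 subunits ARPC2 (log2 change 0.12, edgeR adjusted p = 0.207), ARPC5 (0.01, 0.93) and ARPC1B (-0.09, 0.633) did not pass, and neither did the formin DIAPH1 (0.11, 0.177). The sign of ARPC5 turned by library size (-0.02). The formin DIAPH3, linked to filopodia and cell division, had 673 and 663 counts in shControl against 926 and 996 in shCDK5RAP3 (log2 change 0.52 ± 0.09 SE, edgeR adjusted p = 0.00181). VASP, which speeds filament growth at adhesions and leading edges, had 430 and 528 counts against 731 and 851 (log2 change 0.72 ± 0.13 SE, edgeR adjusted p = 0.00183; 0.0635 without shCDK5RAP3 replicate 2 and 0.054 with no filter). Its relatives differed. EVL fell from 152 and 150.2 CPM to 99.9 and 93.8 CPM (log2 change -0.64 ± 0.06 SE, edgeR adjusted p = 8.62e-05), and ENAH was at 259 and 251 against 279 and 286 CPM (log2 change 0.15, edgeR adjusted p = 0.0762; 0.038 with upper-quartile factors). The summed Ena/VASP level per length, 35.7 and 35.9 CPM per kb in shControl against 35.1 and 35.9 in shCDK5RAP3, overlapped between the groups, while VASP went from 11.6% and 14.1% of it to 20.3% and 22.3%.

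Ezrin, radixin and moesin (the ERM proteins) link filaments to the plasma membrane. MSN, moesin (ENSG00000147065, chromosome X, 65588377 to 65741931), had the lowest adjusted p of all members. It fell from 10667 and 9704 counts in shControl to 2648 and 2661 in shCDK5RAP3, or from 351 ± 24.7 to 91.4 ± 1.98 CPM (SD, n = 2 each), 26.0% of control (log2 change -1.94 ± 0.07 SE, edgeR adjusted p = 5.21e-07). EZR was at 181 and 186 against 171 and 169 CPM (log2 change -0.11, edgeR adjusted p = 0.174). RDX was 1.17-fold higher (log2 change 0.22 ± 0.06 SE, edgeR adjusted p = 0.0201), a call lost without shControl replicate 2 (0.076), without shCDK5RAP3 replicate 1 (0.121) or 2 (0.156) and with no filter (0.0722). The summed ERM level per length thus went from 130.3 to 85.5 CPM per kb, and moesin from 46.5% and 43.8% of it to 18.1% and 17.7%.

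The 7-base words AACACCT and ACACCTA in 3′ UTRs had been picked in an earlier analysis of these same libraries because genes that hold them tended to be lower, so the values here are a description. Of the 10 members that fell FLNC, MYLK, TLN2, PFN2 and MSN hold a word in their longest annotated 3′ UTR (GENCODE 29). TAGLN3, MYH10, GSN, CAPG and EVL do not. The sites of the first 5 are shown for comparison, read from GRCh38 on the strand of each gene, with the word in capitals and 10 bases on either side. At the second TLN2 site both words overlap, so the capitals run to 8 bases.
MSN site 1: ccacactcctACACCTAactcacctaa
MSN site 2: ggatatgttcACACCTAgcgtcagtat
FLNC: agacactacaAACACCTgccttggggg
PFN2: ataactattaAACACCTtgtttacaga
TLN2 site 1: gagctgatccAACACCTcatgcctgcc
TLN2 site 2: gaactttcagAACACCTAataagagagt
MYLK: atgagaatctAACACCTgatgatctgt

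TPM1, DIAPH1 and ENAH also hold a word, and none of these 3 passed the test. Their sites are not shown. In TPM1 both words overlap as at the second TLN2 site, and its log2 change was 0.05. Of the 8 holders 5 were thus lower and 0 higher, with a median log2 change of -0.40, and of the other 44 tested members 5 were lower, with a median of 0.26. Over all tested genes with an annotated 3′ UTR, 884 of 2077 holders were lower (42.6%) against 2716 of the other 11487 (23.6%). The longest annotated 3′ UTRs of the 8 members that hold a word run from 751 bases (FLNC) to 10940 bases (ENAH). A longer 3′ UTR has more places for a word, and neither comparison accounted for length. The part of the words, or of length, in these falls was not tested.

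Beyond the members, 142 genes of the actin system were counted from 6 lists put together by function. Of 136 tested, 37 were higher and 44 lower (27.2% and 32.4%, against 19.7% and 21.8% of all tested genes), with a median log2 change of -0.04. Among tested genes with a mean of at least 10 CPM, 28.6% were higher and 26.7% lower. The share of the lists that was higher was thus near that of abundant genes, although not all listed genes reach that level. These counts were 20 and 31 with no filter on low counts, where fewer genes were also called over the whole table. Both counts were smaller when either shCDK5RAP3 replicate was left out, as were those over all tested genes. Among SRF and MRTF regulators 4 of 7 rose and 0 fell. The 57.1% that rose compare with 19.7% of all tested genes and 28.6% at a mean of at least 10 CPM. SRF and its regulators were added to the named genes once their values had been seen. SRF itself had a log2 change of 0.37 (edgeR adjusted p = 0.00266), its coactivator gene MRTFA 0.42 and the ternary complex factors ELK3 and ELK4 0.44 and 0.60, whereas MRTFB (-0.02), ELK1 (0.01) and SCAI (-0.17) did not pass. MYOCD, the smooth muscle coactivator of SRF, had 0 and 0 counts in shControl against 6 and 5 in shCDK5RAP3 and was not tested.

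Focal-adhesion adaptors and kinases outside the members had 3 rises and 12 falls of 29 (10.3% and 41.4%) and a median of -0.33. The backgrounds were 19.7% and 21.8% of all tested genes, and 28.6% and 26.7% at a mean of at least 10 CPM. The difference of this list from the 6 focal-adhesion members was not tested. The scaffold TNS1 (-1.59), SORBS2 (-1.20) and FHL3 (-1.03) fell most, and LIMS1 (0.38), the focal adhesion kinase PTK2 (0.33) and CRK (0.32) rose.

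Actin nucleation genes had 9 rises and 12 falls of 28 (32.1% and 42.9%, against the same backgrounds). The rises were led by further Arp2/3 subunits, ARPC5L (0.85), ARPC1A (0.64) and ARPC4 (0.57), and the falls by DIAPH2 (-0.81), FHOD3 (-0.77) and SPIRE1 (-0.63). Filament turnover and capping genes had 7 rises and 5 falls of 24 (29.2% and 20.8%). The rises were near the 28.6% at a mean of at least 10 CPM, and the falls near the 21.8% of all tested genes. CAP2 (1.11), the cofilin phosphatase SSH1 (0.58) and the cofilin kinase LIMK1 (0.44) were higher, and TMOD2 (-0.87), SVIL (-0.78) and CAPZA1 (-0.49) lower. Crosslinkers and membrane linkers had 7 rises and 7 falls of 22 (31.8% each, against the same backgrounds). PLS3 (0.38), which bundles filaments, and PALLD (0.30) were higher, and ADD3 (-1.28), LCP1 (-0.99) and MARCKS (-0.96), an actin and membrane binding substrate of protein kinase C, were lower. Values in this and the preceding paragraph are log2 fold changes with an edgeR adjusted p under 0.05, and the genes named are among those with the largest changes at a mean log2 CPM of at least 1.

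**Figure D4:**
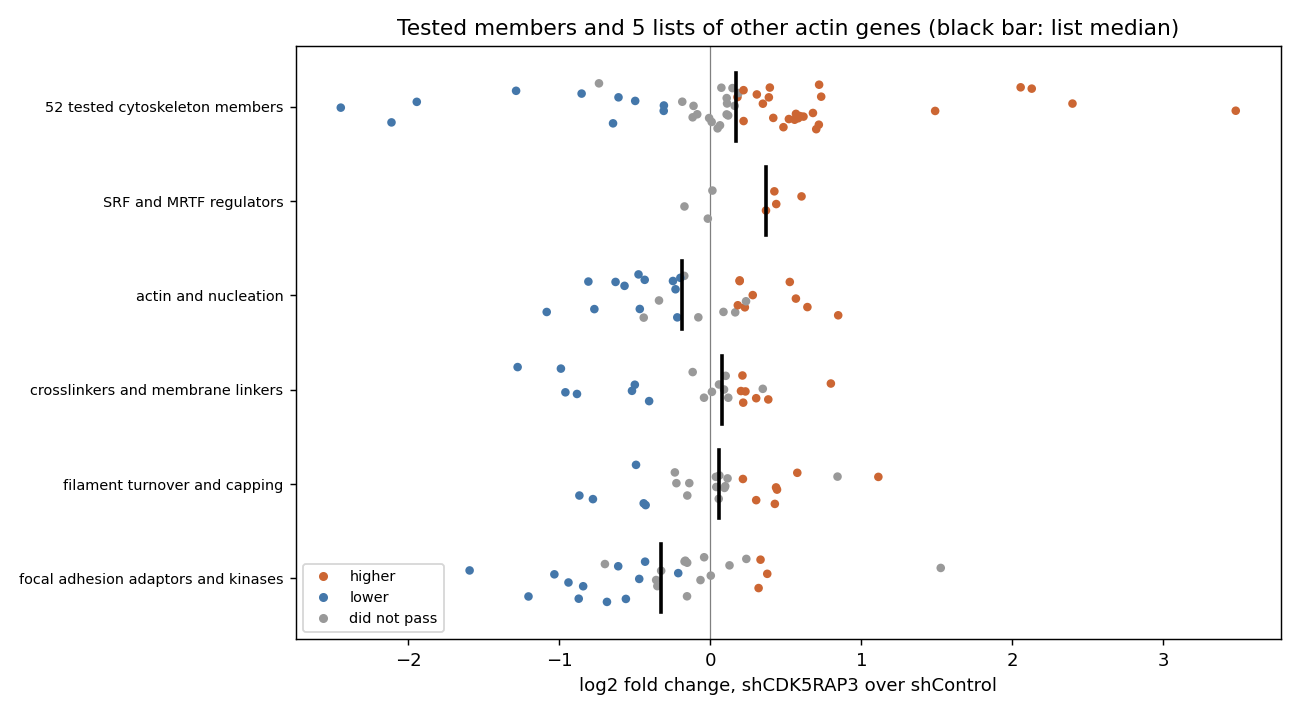
Log2 fold change of the 52 tested members and of the tested genes of 5 lists of other actin genes (each point 1 gene, orange higher, blue lower, grey did not pass, black bar the median). The members and the SRF and MRTF regulators lie mostly to the right of 0, with medians of 0.17 and 0.37, and the focal adhesion adaptors and kinases mostly to the left, with a median of -0.33.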

How the data were processed

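RNA was measured in 4 libraries. The deposited values are whole-number counts, 1 row per Ensembl gene, with no scaling across libraries. HISAT2 2.2.0, StringTie and hg38 are named, without roles, per the submitters' processing notes, and a TruSeq RNA kit per the labels' protocols. Annotation, strand setting and handling of multiple mapping are not stated there.

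The whole table was tested in R 4.3.3 with edgeR 4.0.16 (default expression filter, TMM factors, quasi-likelihood test, Benjamini-Hochberg adjustment over 18775 genes, threshold 0.05). Standard errors are the log2 change divided by the square root of F. CPM use TMM-scaled library sizes, and levels per length use the union of GENCODE 29 exons, which can include rarely used ones. Names matched 56591 of 64252 rows, and a symbol with several rows was taken from the row with most counts. Floors (3 counts) cover counting error only.

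The members and lists were chosen with earlier results of these data known. All members are reported, and of each other list up to 3 called genes per direction, those with the largest change and a mean log2 CPM of at least 1, with SRF and its regulators added after their values were seen. Alternatives were other scaling factors, filters, DESeq2 1.42.0, limma 3.58.1, a robust fit, a threshold of 0.01, rows summed by symbol, a replicate block and each library left out. Some results are not reported here. The fit was tested on simulated data.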

Additional observations from a re-analysis of the deposited data

How the results depend on the processing

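Each comparison was recomputed under 15 alternatives. The members counted higher, 25 as reported, were 18 with no filter on low counts and 18 to 26 with a library left out. The members counted lower, 10 as reported, were 6 with no filter and 6 to 9 with a library left out, lowest without shCDK5RAP3 replicate 2. For the other actin lists the higher genes, 37 as reported, were 20 with no filter, 24 at an adjusted p of 0.01 and 16 to 32 with a library left out, and the lower genes, 44 as reported, were 27 to 42 with a library left out. Of the 35 member calls 21 (15 higher, 6 lower) held under every alternative other than the threshold of 0.01. With the filter of at least 1 CPM in 2 libraries CAPG, called lower in the main fit, had too few counts to be tested. Leaving out a library leaves 1 sample in a group, which is then assumed to vary like the other group. The count over all genes, 7792, was 4488 with no filter, 4836 without shCDK5RAP3 replicate 1 and 3752 without shCDK5RAP3 replicate 2. Scaling factors turned the sign of values that had not passed. CNN3 had a log2 change of 0.00189 with RLE factors, 0.00189 with DESeq2, 0.0242 with upper-quartile factors and -0.0359 to 0.0149 with a library left out. ARPC5 had -0.0197 by library size, -0.000672 with no filter and -0.0671 to 0.0831 with a library left out, and ARPC1B -0.246 to 0.0863. Replicate numbers are shared between the groups only as numbers (deviations of same-numbered samples correlated at 0.157 over 14026 genes), and with the replicate block 28 members were higher and 12 lower, with FLNA, CFL2 and ENAH gained among the higher and TAGLN2 and TMSB10 among the lower. The cause of these differences was not tested.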
